A study of Mus musculus with 35 samples.

Results

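The genes described here encode the nuclear subunits of the mitochondrial respiratory chain (complexes I to IV) and of ATP synthase (complex V). They were all probes of the normalized ganglia table that carry a single gene symbol starting with Nduf, Sdh, Uqcr or Atp5, or with Cox followed by a digit from 4 to 8. Cox7a1 and Cox8b, which are brown fat and muscle isoforms, were left out by the rule. The rule found 66 of 12688 probes (8354 of them with a single symbol), naming 54 of 7822 genes, and the same probes were read in the series table. There were 24 probes of 23 complex I genes, 1 probe of the complex I assembly factor Ndufaf1, 2 of complex II, 5 of 4 complex III genes, 14 of 9 complex IV genes and 19 of 14 ATP synthase genes. The last probe, Sdh1, is an old symbol of Sord, sorbitol dehydrogenase, which is no subunit of the chain, so it was counted apart and the complexes comprise 65 probes of 53 genes. None of the 66 probes names Sdha, Sdhb, Uqcrc1, Cox4i2, Cox6b2 or Cox8c, and complex II is therefore represented here by its membrane anchors Sdhc and Sdhd alone.

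Complex I passes electrons from NADH to ubiquinone and complex II passes them from succinate. Complex III hands them on to cytochrome c, complex IV to oxygen, and ATP synthase uses the proton gradient built along the way. The subunits come from nuclear genes and, for all complexes but II, also from mitochondrial DNA, and most are made in fixed proportions within a complex. Some complex IV subunits have tissue isoforms: Cox6a2 is the form of heart and skeletal muscle, where most other tissues use Cox6a1. Neurons and their precursors depend strongly on this pathway, and brown fat and muscle hold many mitochondria.

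All animals were TH-MYCN mice bred to homozygosity, in which the tyrosine hydroxylase promoter drives human MYCN in cells of the sympathoadrenal lineage, so ganglia and tumors alike carry the transgene and no group without it is compared here. Set 1 held 24 neuroblastoma tumors in 4 size classes of 6: small (0.05 to 0.1 g, mice aged 28 to 42 days), medium (0.24 to 0.46 g, 35 to 42 days), large (0.76 to 1.3 g, 35 to 46 days) and very large (1.6 to 3 g, 35 to 45 days). Set 2 held sympathetic ganglia with foci of neuroblast hyperplasia from day 0 (5 arrays), day 7 (2) and day 14 (2) of life, and 2 small tumors (0.08 and 0.1 g, from mice aged 42 and 28 days), here called the set 2 tumors. Their specimen names recur in set 1, as small replicates 6 and 3. RNA came from frozen sections and was hybridised as labelled cDNA to 1-color arrays. The labels name separate specimens but do not otherwise say how they relate, so p values measure the spread between these arrays.

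Values are log2 intensities. Set 1 was quantile normalized for this work and set 2 was used as the authors normalized it, which places set 2 levels higher, so no level is compared between the sets. Array medians before normalization ran from 557.79 to 1292.16 in set 1 and from 655.665 to 1513.66 in set 2. Differences come from limma, p values are adjusted over all probes of the set, and "rose", "fell" and "passed" refer to an adjusted p under 0.05. Neuroblast and noradrenergic markers (12 of 13 measured) had mean levels between 15.8 and 16.7 in the 24 tumors of set 1 and between 17.1 and 18.8 on the 11 arrays of set 2. Brown fat and skeletal muscle markers differed far more between the tumors of set 1. Not all other tissues did: 0 of 7 endothelial and 0 of 7 macrophage markers passed between very large and small tumors. Mean brown fat marker levels (6 of 13 measured) were 14.1 to 17.0 in small tumors and 10.6 to 14.0 in medium ones, and the highest values in large and very large tumors were 13.0 and 13.7. Skeletal muscle markers (8 of 17 measured) were 10.9 to 18.2 in small tumors, with medians of 10.0, 10.1 and 11.4 in the 3 larger classes. In very large against small tumors all 6 brown fat and 5 of 8 muscle markers fell, as did 4 of 7 glial, 4 of 9 white adipocyte and 4 of 8 fibroblast markers, while 3 of 3 erythroid markers rose. Of the 12 neuroblast and noradrenergic markers 5 fell and 1 rose. In bulk tissue, fewer cells of a type and less RNA per cell cannot be told apart.

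Many promoters of nuclear respiratory genes are known to carry sites for NRF1, GABP (also called NRF2) and YY1. RefSeq promoter windows on GRCm38.p6 were found for 43 of the 53 genes, and the 250 bases before each start were searched on both strands for 7 letters of each motif. The NRF1 letters GCGCATG stood in 14.0% of member genes (6 of 43) and 3.68% of all 27025 genes with RefSeq windows. Those 27025 were taken whether or not the array measured them. The GABP letters CCGGAAG stood in 20.9% and 7.83%. The YY1 letters AAGATGG stood in 2.33% and 5.18%, or in 18.6% and 7.28% when the 50 bases after the start were included. A match is a description of the sequence and not a bound site. The promoters of Sdhd, a complex II anchor, and Cox6b1 (listed as Cox6b on the array), a complex IV subunit, are shown because, Cox6a2 aside, they had the highest and lowest differences among members called between set 2 tumors and day 14 ganglia. They lie on the minus strand at chr9:50603850-50604099 and chr7:30626115-30626364, and capitals mark the GABP letters read on the opposite strand, 46 and 28 bases before the start.
Sdhd: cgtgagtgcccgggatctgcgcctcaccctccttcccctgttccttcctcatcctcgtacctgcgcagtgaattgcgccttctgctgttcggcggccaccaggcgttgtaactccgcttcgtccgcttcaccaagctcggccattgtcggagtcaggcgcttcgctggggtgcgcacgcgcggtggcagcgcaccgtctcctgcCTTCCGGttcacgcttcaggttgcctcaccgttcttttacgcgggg
Cox6b1: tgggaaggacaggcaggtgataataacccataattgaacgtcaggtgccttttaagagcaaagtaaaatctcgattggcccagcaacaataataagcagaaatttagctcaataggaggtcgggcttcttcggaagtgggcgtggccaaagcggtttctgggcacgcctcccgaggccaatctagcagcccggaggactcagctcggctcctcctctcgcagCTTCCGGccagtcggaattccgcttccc

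Across the 4 tumor sizes, most subunits differed little, and the few that passed were lower in larger tumors. The large tumors had 5 member probes lower and 0 higher than the small ones: the complex I subunits Ndufb9 and Ndufs8, and Cox4i1, Cox5a and Cox6a2 of complex IV. Very large tumors had 2 lower and 0 higher, Sdhc and Cox6a2. The medium class had 0 in either direction by limma, where 10 of 65 had an unadjusted p under 0.05 (9 lower, 1 higher), as did 17.7% of the probes of the authors' table. Of all 32996 probes, 0.961% passed between medium and small tumors (0.318% higher, 0.643% lower), 2.31% between large and small (0.949% higher, 1.36% lower) and 4.69% between very large and small (2.25% higher, 2.45% lower). Within the same fits the shares among the 12688 probes of the authors' table were 1.85%, 4.67% and 9.73%. The members' shares were 7.69% of 65 in large tumors and 3.08% in very large ones. These rest on 5 and 2 probes, too few to read as above or below that background.

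The complexes differed by small amounts. Complex I had a median log2 difference of -0.16, -0.27 and -0.19 in medium, large and very large tumors against small ones, with 21, 23 and 18 of its 24 probes below 0. Both complex II anchors were below 0 in each class, with medians of -0.25, -0.29 and -0.32. Complex III had medians of -0.13, -0.27 and -0.07. Complex IV without Cox6a2 had -0.09, -0.21 and 0.01, and ATP synthase -0.05, -0.15 and -0.01, against 0.03 over all probes in each comparison. In very large tumors the medians of complexes I and II were below 0, while those of IV and V were near 0. The array means of complex I there, -0.07 to 0.08, lay within its small-tumor range of -0.24 to 0.37. Complex II rests on 2 probes.

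**Figure D1:**
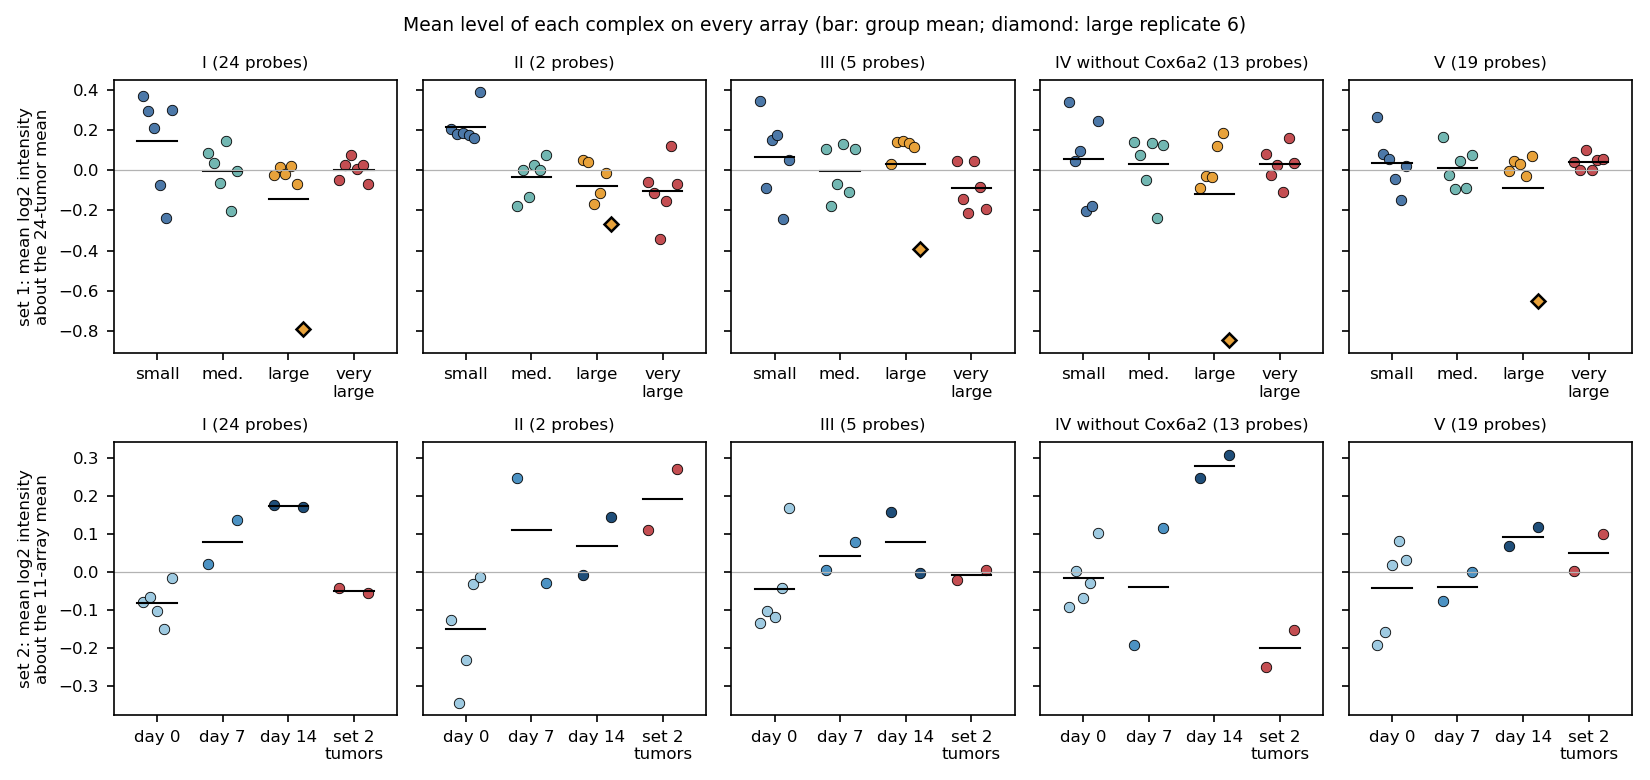
Mean log2 intensity of each complex on every array, as the deviation of its probes from their own mean over the set (top, 24 tumors of set 1; bottom, 11 arrays of set 2). Points are arrays, bars are group means, and the diamond is large replicate 6, at -0.79 for complex I and -0.85 for complex IV without Cox6a2.

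A single array, large replicate 6, stood apart from the others. It was the lowest of the 24 tumors at 41 of the 65 member probes (63.1%) and at 14.1% of the 12688 probes of the authors' table. It was the highest tumor at 3 member probes and at 16.6% of table probes. It also had the lowest array median before normalization. Its mean deviation was -0.79 for complex I, where the other 5 large tumors ran from -0.07 to 0.02. For ATP synthase it was -0.65 against -0.03 to 0.07. Low values were not shared by every member: large replicate 6 had the highest level of all 24 tumors for Ndufv1, which binds NADH, and for Atp5a1 and Atp5b, the alpha and beta subunits of the catalytic head. Without large replicate 6 the large class had 2 member calls, and 1.45% of all probes passed. Of the members called with all arrays, Cox6a2 kept its call, while Ndufb9, Ndufs8, Cox4i1 and Cox5a lost theirs. The medians of complexes I, III, IV without Cox6a2 and V moved to -0.16, -0.09, -0.08 and -0.07. At the other end, small replicate 1 was the highest tumor at 25 of 65 member probes (38.5%) and at 6.45% of table probes.

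Within complex I, Ndufb9 (an accessory subunit) ran from 16.37 to 16.95 in small tumors with a median of 16.84. It ran from 16.28 to 16.72 in medium tumors (median 16.46), from 15.61 to 16.55 in large ones (16.38) and from 16.16 to 16.55 in very large ones (16.38). The classes overlapped, but each larger class had its median near the bottom of the small range. Ndufb9 fell by 0.51 ± 0.13 (SE) in large tumors (adjusted p = 0.0368), and the other differences were -0.31 ± 0.13 (0.362) in medium and -0.40 ± 0.13 (0.0802) in very large tumors. When arrays were left out 1 at a time, 4 of 12 fits kept the large call, and it was lost without large replicate 6. Ndufs8, an iron-sulfur core subunit, ran from 15.93 to 16.17 in small tumors (median 16.10) and from 15.34 to 15.87 in large ones (15.75), so these 2 classes did not overlap. It fell by 0.43 ± 0.11 in large tumors (adjusted p = 0.0288) and had -0.28 ± 0.11 in very large ones (0.15). Leaving out large replicate 6 or 4 and small replicate 3, 4 or 6, 1 at a time, took its adjusted p to between 0.0502 and 0.0782.

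For the complex II anchors, the mean of the 2 probes was higher in all 6 small tumors (0.16 to 0.39) than in any of the 18 larger ones (-0.34 to 0.12). Sdhc ran from 15.42 to 15.91 in small tumors (median 15.70), from 15.15 to 15.70 in medium (15.35), from 15.19 to 15.50 in large (15.40) and from 14.97 to 15.57 in very large ones (15.29). It fell by 0.40 ± 0.11 in very large tumors (adjusted p = 0.028), and 7 of 12 fits with 1 array left out kept that call. Sdhd ran from 17.99 to 18.29 in small tumors (median 18.05) and from 17.70 to 18.03 in very large ones (17.85), a difference of -0.23 ± 0.10 that did not pass (0.193).

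In complex III no probe passed between sizes. Uqcrc2, a core protein, came nearest: it ran from 17.80 to 18.25 in small tumors (median 17.97) and had medians of 17.56, 17.58 and 17.68 in the larger classes, with differences of -0.34, -0.32 and -0.29 (SE 0.10 each, adjusted p = 0.086, 0.0799 and 0.0828). The Rieske iron-sulfur protein Uqcrfs1 was level, with class medians of 18.40, 18.36, 18.41 and 18.36. The 2 probes of Uqcr (Uqcr11) disagreed in large tumors, at 0.97 ± 0.35 (adjusted p = 0.16) for the dim probe, whose small-tumor median was 10.10, and -0.50 ± 0.20 (0.22) for the bright one, at 16.57.

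In complex IV, Cox4i1, a regulatory subunit that binds ATP, ran from 18.53 to 18.72 in small tumors (median 18.65) and from 18.04 to 18.48 in large ones (18.40). It fell by 0.33 ± 0.09 (adjusted p = 0.0495) with no overlap between these classes, and the very large difference was -0.25 ± 0.09 (0.117). Cox5a ran from 17.93 to 18.60 in small (median 18.26) and from 17.18 to 18.06 in large tumors (17.84) and fell by 0.46 ± 0.12 (0.0382). Both calls were lost without large replicate 6, and in 10 and 8 of 12 fits with 1 array left out. Cox7a2l, a factor that joins complexes III and IV, had class medians of 17.56, 17.54, 17.53 and 17.64 and no call.

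Cox6a2 changed more than any other member. It ran from 10.11 to 17.36 in small tumors (median 14.42), from 9.97 to 13.85 in medium (10.60), from 9.28 to 12.36 in large (10.33) and from 10.00 to 14.32 in very large ones (10.64). In 5 of the 6 small tumors it was at or above 14.07, and 1 tumor of the 18 larger ones exceeded that. The log2 difference of Cox6a2 was -3.84 ± 0.85 in large tumors (adjusted p = 0.0127), -3.10 ± 0.85 in very large ones (0.0314) and -3.33 ± 0.85 in medium ones (0.0521). The large call held in 12 of 12 fits with 1 array left out and the very large call in 5 of 12. Muscle genes moved with it: Ckm, muscle creatine kinase, was at 9.78 in small replicate 3, where Cox6a2 was at its small-tumor minimum, and at 15.11 to 17.78 in the other 5. Larger tumors with high Cox6a2 also had high Ckm: medium replicate 5 had 13.85 and 15.09, and very large replicate 2 had 14.32 and 14.95. Ucp1, the uncoupling protein of brown fat, did not follow it in small replicate 3, which had 17.99 where the small tumors ran from 15.46 to 19.74. With brown fat and muscle marker levels in the model the Cox6a2 differences were -0.53 (adjusted p = 0.908) in large and -0.45 (0.909) in very large tumors, and no other member passed in either comparison. That model called few probes of any kind, 7 of 32996 in large tumors (761 without the markers) and 76 in very large ones (1549). Within it Ndufs8 was at -0.40 (0.637), Cox4i1 at -0.32 (0.658), Cox5a at -0.13 (0.924) and Ndufb9 at 0.016 (0.995) in large tumors, and Sdhc was at -0.36 (0.561) in very large ones.

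**Figure D2:**
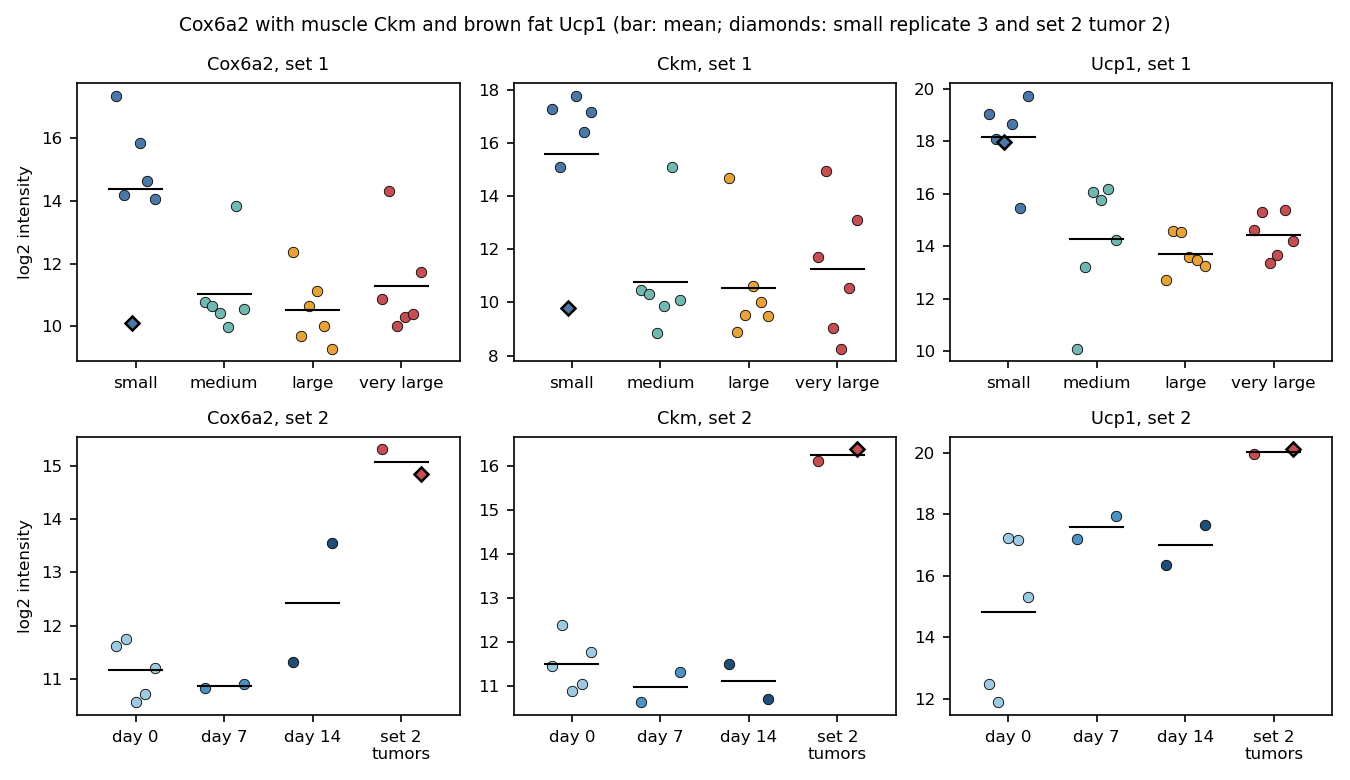
Log2 intensity of Cox6a2, of the muscle gene Ckm and of the brown fat gene Ucp1 on every array (top, set 1; bottom, set 2; bars are group means). Diamonds mark small replicate 3 and set 2 tumor 2, which carry the same specimen name: Cox6a2 and Ckm are low in the first and high in the second, while Ucp1 is high in both.

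Small replicate 3 and set 2 tumor 2 bear the same specimen name, yet Cox6a2 stood at percentile 52.4 of its array in the first and 83.3 in the second. Ckm stood at 48.1 and 90.2, and Ucp1 at 98.3 and 98.9. For small replicate 6 and set 2 tumor 1 the Cox6a2 percentiles were 84.0 and 85.7. The labels do not say whether these were cut from the same piece of tumor.

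In ATP synthase no probe passed between sizes. The catalytic Atp5b ran from 19.67 to 20.05 in small tumors (median 19.88) and had medians of 19.66, 19.76 and 19.66 in the larger classes. Atp5a1 had medians of 19.47, 19.25, 19.40 and 19.23. The peripheral stalk subunit Atp5o came nearest to a call in very large tumors, at -0.36 ± 0.14 (adjusted p = 0.157), with a second, dimmer probe at 0.90 ± 0.40 (0.217).

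The trend with log10 weight gave 5 calls, all lower with weight, among them Ndufb9, Sdhc, Cox4i1 and Cox6a2. Over all probes 5.59% passed (2.62% higher, 2.96% lower), and 11.5% of the probes of the authors' table. Slopes per 10-fold weight were -0.33 ± 0.09 for Ndufb9 (adjusted p = 0.0198), -0.26 ± 0.07 for Sdhc (0.0253), -0.20 ± 0.06 for Cox4i1 (0.0403) and -2.48 ± 0.59 for Cox6a2 (0.011). Without the 6 small tumors the slopes were -0.19 for Ndufb9 (0.919), -0.14 for Sdhc (0.926), -0.09 for Cox4i1 (0.962) and 0.035 for Cox6a2 (0.999), in a limma fit that called 0 of all 32996 probes (1957 at an unadjusted p under 0.05). Without large replicate 6 the count was 9.

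In the ganglia, the median difference of each complex was above 0 at day 14 against day 0. At day 14, 6 member probes rose and 0 fell: Ndufa2 and Ndufs7 of complex I, Sdhc, Cox4i1 and both probes of Atp5h, a peripheral stalk subunit of ATP synthase. Of all 12688 probes 10.2% passed (5.56% higher, 4.63% lower), and 9.23% of the 65 members did, so the members' share of calls was near the background, with every call on the higher side. Without day 14 replicate 2 no member passed, and the calls over all probes went from 1293 to 143. The medians were 0.25 for complex I, 0.22 for II, 0.18 for III, 0.28 for IV without Cox6a2 and 0.24 for ATP synthase, against -0.01 over all probes, and 51 of 65 members were above 0. The complex II value lies between probes of opposite sign, Sdhc at 0.79 and Sdhd at -0.36. Unadjusted, 19 members were higher and 1 lower at p under 0.05, where 13.1% of all probes were higher and 12.6% lower.

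On each array, the mean deviation of complex I was -0.08, -0.07, -0.10, -0.15 and -0.01 in day 0 ganglia, 0.02 and 0.14 at day 7, and 0.18 and 0.17 at day 14. Complex IV without Cox6a2 was at -0.09, 0.00, -0.07, -0.03 and 0.10 at day 0, -0.19 and 0.12 at day 7, and 0.25 and 0.31 at day 14. In both complexes the day 14 arrays were above all day 0 arrays. ATP synthase was at -0.19, -0.16, 0.02, 0.08 and 0.03 at day 0 and 0.07 and 0.12 at day 14, so the groups overlapped. Complex III overlapped as well, and with the series table centred on array medians its median fell to -0.15 and that of ATP synthase to -0.18, while complexes I, II and IV without Cox6a2 kept 0.19, 0.20 and 0.17.

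Ndufa2, an accessory subunit, was at 19.58, 19.72, 19.37, 19.35 and 19.63 in day 0 ganglia, 19.73 and 20.08 at day 7, and 20.16 and 20.22 at day 14. It rose by 0.66 ± 0.15 (adjusted p = 0.0154), and both day 14 arrays were above the other ganglia. Ndufs7, an iron-sulfur core subunit, was at 18.42, 18.27, 18.26, 18.19 and 18.39 at day 0, 18.84 and 18.73 at day 7, and 18.82 and 18.75 at day 14. It rose by 0.48 ± 0.13 (0.0398) and was already at its later level on day 7. Ndufv1 was the member called at day 7: it was at 18.11, 18.17, 17.66, 17.93 and 17.72 at day 0, 18.78 and 18.58 at day 7, and 18.36 and 18.62 at day 14. Its rise was 0.76 ± 0.17 at day 7 (adjusted p = 0.0466, kept in 2 of 7 fits with 1 array left out), and the day 14 difference was 0.57 ± 0.17 (0.0572).

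Cox4i1 was at 19.96, 19.96, 19.77, 19.76 and 19.69 at day 0, 20.03 and 20.23 at day 7, and 20.27 and 20.43 at day 14. It rose by 0.52 ± 0.13 at day 14 (adjusted p = 0.026), with no overlap between day 0 and either later day. The brighter Atp5h probe was at 20.71, 20.83, 20.50, 20.42 and 20.63 at day 0, 21.02 and 21.13 at day 7, and 21.29 and 21.38 at day 14. It rose by 0.72 ± 0.13 (0.00561), and the second probe rose by 0.66 ± 0.14 (0.0135). With the series table centred on array medians the brighter probe had 0.06 (0.91) and the second 0.65 (0.0547), so the 2 probes did not respond alike to the scaling.

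Between day 7 and day 0, 1 member of 65 passed (1.54%), against 1.99% of all probes (1.47% higher, 0.512% lower). Between day 14 and day 7, 0 members passed by limma, 10 had an unadjusted p under 0.05 (9 higher, 1 lower, where 6.10% and 7.31% of all probes were), and 0.465% of all probes passed (0.197% higher, 0.268% lower). Complex IV without Cox6a2 had the largest median there, 0.41. The day 0 specimens come in 2 series by their names. Against replicates 1 and 2 alone, day 14 gave 3 calls and day 7 gave 0, and against replicates 3 to 5 alone they gave 19 and 14 of 66. The counts over all 12688 probes moved as well, to 1362 and 310 with replicates 1 and 2 and to 3504 (27.6%) and 3142 (24.8%) with replicates 3 to 5. Schwann cell and satellite glia markers moved with day, from levels of 14.59 to 15.54 at day 0 to 15.99 and 15.88 at day 14, as did brown fat markers (13.0 to 15.4, then 15.8 and 16.1). By calls at day 14 against day 0, 3 of 7 glial, 1 of 6 brown fat and 2 of 9 white adipocyte markers rose, and 2 of 12 neuroblast and noradrenergic markers rose while 5 fell. Their part in the subunit changes was not tested.

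**Figure D3:**
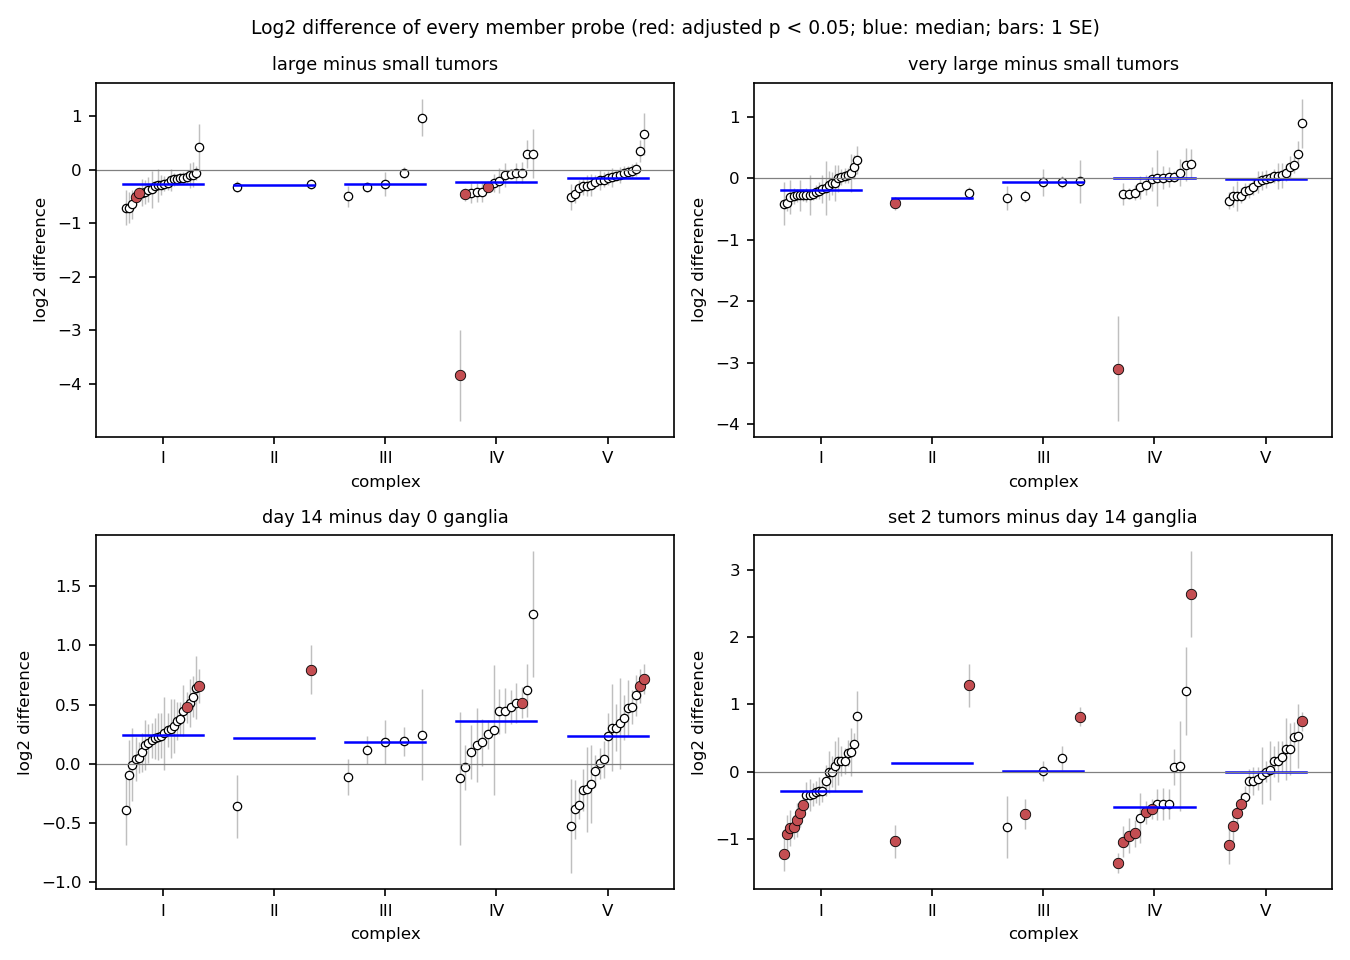
Log2 difference of every member probe, sorted within its complex, in 4 comparisons, with bars of 1 SE, red points for an adjusted p under 0.05 and blue lines at the complex median. Day 14 medians lie between 0.18 and 0.36 above day 0 (complex IV here includes Cox6a2), and set 2 tumors against day 14 have red points on both sides of 0.

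The set 2 tumors differed from the ganglia in both directions. Against day 14, 4 member probes were higher and 19 lower, 35.4% of 65 where 39.7% of all probes passed (19.9% higher and 19.9% lower). With all arrays and the authors' normalization the members' share of calls was near the background, with 28.8% of all 66 lower and 6.06% higher. Leaving out 1 array took the member count to between 9 (without day 14 replicate 2) and 14 (without set 2 tumor 2), with 13 and 10 without the other day 14 array and the other tumor, and the share over all probes to between 26.1% and 27.6%. With the series table centred on array medians the split was 3 higher and 7 lower, and with no normalization 1 higher and 0 lower. Over all probes 35.7% passed when centred (2281 higher, 2252 lower) and 15.9% with no normalization (1067 higher, 953 lower). The members' share of calls was below that background under both scalings. Against day 0, 8 of the 65 were higher and 7 lower (and Sdh1 was higher), 23.1% where 37.3% of all probes passed (18.4% higher, 18.9% lower). The splits of all 66 under those 2 scalings were 3 and 5, and 13 and 0. Over all probes 33.5% passed when centred (1980 higher, 2266 lower) and 34.5% with no normalization (3958 higher, 423 lower). Both comparisons share the 2 tumors, so their values are given side by side.

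The complexes did not move as 1 group. Against day 14, complex IV without Cox6a2 had a median of -0.55 with 6 of 13 probes lower, and complex I -0.29 with 7 of 24 lower, and neither had a probe called higher. Complex III had 1 higher and 1 lower and a median of 0.01, ATP synthase 1 higher and 4 lower and a median of -0.00, and the median over all probes was 0.06. Against day 0 the medians were 0.07 for complex I, -0.30 for IV without Cox6a2 and 0.17 for ATP synthase. The mean deviation of complex IV without Cox6a2 was -0.25 and -0.15 in the tumors. The first was below all 9 ganglia, and the second below all but day 7 replicate 1, at -0.19.

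The 2 complex II anchors passed in opposite directions against day 14. Sdhc was at 15.83, 15.75, 15.24, 15.37 and 15.44 in day 0 ganglia, 16.13 and 16.25 at day 7, 16.11 and 16.53 at day 14, and 15.23 and 15.33 in the tumors. It rose by 0.79 ± 0.21 from day 0 to day 14 (adjusted p = 0.0321) and was 1.04 ± 0.25 lower in tumors than at day 14 (log2 difference -1.04, 0.00537). Sdhd was at 18.35, 18.00, 18.72, 19.00 and 18.97 at day 0, 18.79 and 18.12 at day 7, 18.31 and 18.19 at day 14, and 19.42 and 19.64 in the tumors. It was higher in tumors by 1.28 ± 0.32 than at day 14 (0.00626) and by 0.93 ± 0.26 than at day 0 (0.0147). The day 14 calls were lost without day 14 replicate 2 for Sdhc and without set 2 tumor 2 for Sdhd. The tumors were above all 9 ganglia for Sdhd and within or below them for Sdhc, although the proteins are partners in the same membrane anchor.

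**Figure D4:**
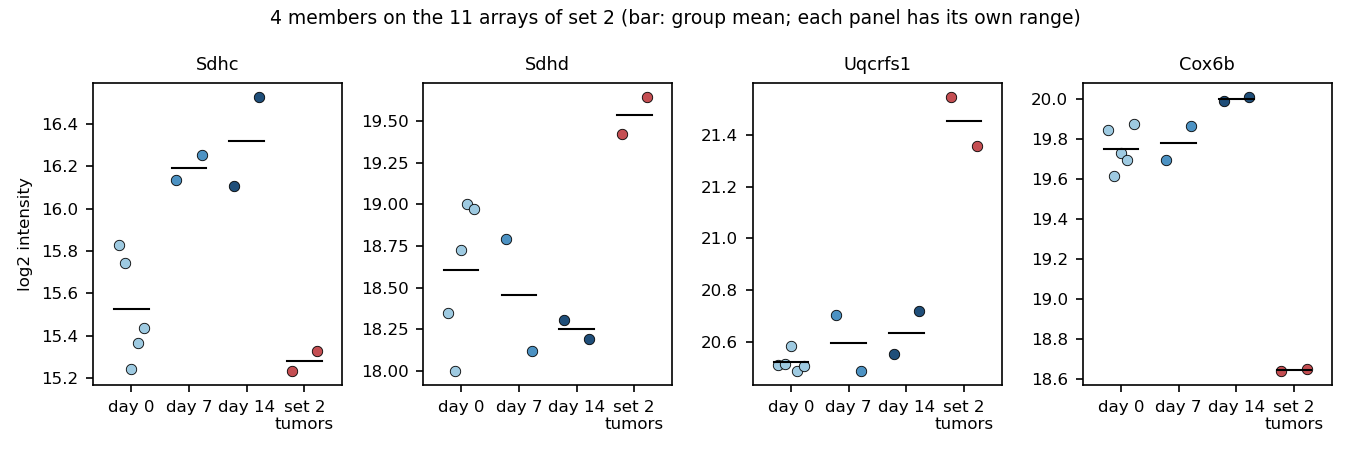
Log2 intensity of Sdhc, Sdhd, Uqcrfs1 and Cox6b on the 11 arrays of set 2 (points are arrays, bars are group means, each panel has its own range). The 2 tumors are the highest arrays for Sdhd and Uqcrfs1 and the lowest for Cox6b, while for Sdhc they lie at the low end of day 0.

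In complex III, Uqcrfs1 was at 20.51, 20.52, 20.59, 20.49 and 20.51 at day 0, 20.70 and 20.49 at day 7, 20.55 and 20.72 at day 14, and 21.55 and 21.36 in the tumors. The ganglia differed by little and the tumors stood clear of them, by 0.93 ± 0.12 against day 0 (adjusted p = 5.12e-05) and 0.82 ± 0.14 against day 14 (0.000575). Both calls held when any single array was left out, but with the series table centred on array medians the differences were 0.17 (0.608) and 0.45 (0.216). The bright Uqcr probe was lower than at day 14 by -0.63 ± 0.22 (0.0387), and Uqcrb did not pass (0.01 ± 0.15, 0.978).

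In complex IV, Cox6b, a subunit on the intermembrane side, was at 19.84, 19.61, 19.73, 19.70 and 19.88 at day 0, 19.69 and 19.87 at day 7, 19.99 and 20.01 at day 14, and 18.64 and 18.65 in the tumors. Its differences were -1.11 ± 0.12 against day 0 (adjusted p = 2.17e-05) and -1.36 ± 0.15 against day 14 (1.96e-05), the smallest p of any member in both, and it kept them without any single array. In set 1 the same probe had class medians of 18.34, 17.88, 17.90 and 17.90, with no call. Cox5b had 2 bright probes at -1.04 ± 0.23 (0.00292) and -0.95 ± 0.26 (0.0123) against day 14, and a dim probe, at the floor of 9.78 on 4 of 11 arrays, at 0.08 ± 0.67 (0.937). Cox7c had -0.92 ± 0.20 (0.00277) at 1 probe and -0.49 (0.126) at the other. Cox4i1, which had risen by day 14, was at 19.76 and 19.82 in the tumors, 0.55 ± 0.15 below day 14 (log2 difference -0.55, 0.0126) and level with day 0 (-0.04, 0.853).

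Cox6a2 was the complex IV member called higher in the tumors. It was at 11.62, 11.75, 10.56, 10.72 and 11.20 at day 0, 10.82 and 10.90 at day 7, 11.31 and 13.55 at day 14, and 15.31 and 14.84 in the tumors. It rose by 3.90 ± 0.53 against day 0 (adjusted p = 9.9e-05) and by 2.64 ± 0.63 against day 14 (0.00537). The day 14 difference ran from 1.52 to 3.76 when 1 array was left out, and was not called without day 14 replicate 1 or set 2 tumor 1. The dim Cox7b probe, named after its values were seen, also had both tumors (13.93 and 13.60) above every ganglion (at most 13.24), but was not called (1.48, adjusted p = 0.0506, against day 0 and 1.19, 0.171, against day 14). The brighter Cox7b probe moved the other way and fell against day 0 (-0.52, 0.0479). Most muscle markers moved with Cox6a2: against day 14 and against day 0 alike, 7 of 8 were called higher and 1 lower. Myl1 went the other way at both probes. Its brighter probe was at 19.44 and 19.31 in the tumors and 20.09 and 20.43 at day 14. The mean muscle marker level was 18.1 and 18.2 in the tumors, 12.9 and 13.1 at day 14 and 13.1 to 14.4 at day 0. Ckm was 5.13 higher than at day 14 (9.11e-06). Day 14 replicate 2, with Cox6a2 at 13.55, had a muscle marker level of 12.9.

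In complex I, Ndufs8 was at 16.01, 16.09, 15.76, 16.36 and 15.82 at day 0, 15.97 and 15.96 at day 7, 16.19 and 16.14 at day 14, and 14.66 and 15.21 in the tumors. Its differences were -1.07 ± 0.21 against day 0 (adjusted p = 0.00152) and -1.23 ± 0.25 against day 14 (0.00203), and the tumors lay below all ganglia. Ndufs5, an accessory subunit, was at 18.93 and 18.97 in the tumors against 19.32 to 19.82 at day 0 and 19.87 and 19.67 at day 14, with -0.62 ± 0.15 (0.00559) and -0.82 ± 0.18 (0.003). Ndufs7 was lower than at day 14 (-0.49 ± 0.16, 0.0251) and level with day 0 (-0.02, 0.935). Both Ndufa3 probes, Ndufb3 and Ndufb4 were also lower than at day 14, by -0.93 to -0.62, and each of these calls, and that of Ndufs7, was lost in all 4 fits with 1 array left out. Against day 0, Ndufs4 (0.47 ± 0.13, 0.0131) and the dim Ndufb8 probe (1.09 ± 0.31, 0.0144) were higher. Ndufs1, the largest iron-sulfur subunit, did not pass (0.00 ± 0.22 against day 14, 0.996).

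In ATP synthase, parts of the peripheral stalk went separate ways. Atp5f1 (Atp5pb) was at 19.81, 19.74, 19.98, 19.91 and 19.84 at day 0, 19.64 and 19.65 at day 7, 19.44 and 19.58 at day 14, and 20.26 and 20.26 in the tumors. It was higher than at day 14 by 0.75 ± 0.14 (adjusted p = 0.00116) and than at day 0 by 0.40 ± 0.12 (0.0171), above all 9 ganglia. The 2 probes of Atp5h, its neighbour in the stalk, were at -0.48 ± 0.15 (0.0263) and -0.61 ± 0.17 (0.0119) against day 14. Atp5g3, which forms the proton-carrying c ring, was at -1.09 ± 0.28 (0.0087), while Atp5g1 and Atp5g2, which encode the same mature protein, were at -0.14 (0.641) and 0.15 (0.729). Atp5d, in the central stalk, was at -0.80 ± 0.23 (0.0143). With 1 array left out, 4 of 4 fits kept the day 14 call of Atp5f1, 2 that of Atp5g3, 1 that of Atp5d (-1.10 to -0.51), and 0 and 1 those of the Atp5h probes. The catalytic Atp5a1 and Atp5b and the central shaft Atp5c1 did not pass, at -0.10 ± 0.17, 0.22 ± 0.24 and 0.34 ± 0.39.

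Markers of other tissues differed between the set 2 tumors and the ganglia in both directions. Of 7 macrophage markers measured 5 were higher than at day 14, and of 9 white adipocyte markers 7, while 5 of 7 glial markers were lower. Of 8 fibroblast markers 4 were lower and 0 higher, and of 12 neuroblast and noradrenergic markers 4 were lower. The mean brown fat marker level was 17.4 and 17.5 in the tumors, 15.8 and 16.1 at day 14 and 13.0 to 15.4 at day 0, with 1 of 6 markers called higher and 1 lower than at day 14. How far these tissues contribute to the subunit differences was not tested.

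Other mitochondrial genes gave a comparison for the subunits. Of 16 citric acid cycle and pyruvate dehydrogenase genes measured of 20, 6 fell and 0 rose in very large against small tumors, with a median of -0.44, where 9.73% of the probes of the authors' table passed in either direction and brown fat markers had a median of -3.82, whose part was not tested. In medium and large tumors 1 and 2 of the 16 fell. The 6 included Ogdh (-0.84 ± 0.14, adjusted p = 0.000993), Pcx (-1.86 ± 0.37, 0.00376) and citrate synthase Cs (-0.58 ± 0.12, 0.0039). Of 5 measured of 7 other genes that pass electrons to or along the chain, which include the complex III subunit Cyc1, 3 fell: Etfa and Etfb, which feed electrons from fatty acid oxidation (-0.64 and -0.58), and cytochrome c, Cycs (-0.89 ± 0.19, 0.00511). Among 12 inner and outer membrane carriers of 16, 4 fell, with the citrate carrier Slc25a1 at -0.78 (0.00124). Tfam, which packages and transcribes mitochondrial DNA, rose (0.53 ± 0.10, 0.00175), and it was the 1 regulator called of 9 measured. In set 2 tumors against day 14, Tfam (1.72, 0.00296) and Etfa (1.37, 0.0005) were higher and Slc25a1 (-3.25, 1.13e-06) and Ogdh (-0.72, 0.00654) lower. The 16 citric acid cycle and pyruvate dehydrogenase genes had 1 higher and 1 lower there, with a median of 0.23. The 12 carriers had 1 higher and 3 lower, with a median of 0.12. Of 16 assembly factors measured of 32, 1 rose in very large tumors (Coa7). In set 2 tumors 1 was higher (Cox11) and 3 lower (Ttc19, Coa3 and Cox19) than at day 14, where 39.7% of all probes passed. None of the 13 mitochondrially encoded subunits had a named probe here, so the proportion of nuclear to mitochondrial subunits was not analysed.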

How the data were processed

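Each array hybridised digoxigenin-labelled cDNA from total RNA of 10 µm frozen sections, per the labels' protocols. Values were read from 2 tables. The series table holds 33012 probes for all 35 arrays as deposited intensities whose array medians differ, so no normalization between arrays is visible in them. The second, with 12688 probes for the 11 arrays of set 2, holds intensities that the authors deposited as quantile normalized: all columns had the same sorted values, and each rank carried the highest of the 11 arrays in 100% of ranks. No source used here gives the scanner software, background correction or probe filter. All columns could be mapped (0 left over).

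Set 1 was quantile normalized with limma over 32996 probes (16 with missing values left out). The 1st percentile of intensities (168.105 for set 1 and 878.91 for set 2) served as a floor before log2. No probe was filtered for low signal. In each set a single limma model held all its groups (lmFit, then eBayes with trend, 2-sided), and p values were adjusted over all its probes by Benjamini-Hochberg. The weight trend used log10 grams. Complex medians and means carry no test. The fits were tested on simulated data for very large against small tumors, day 14 against day 0, and set 2 tumors against day 14. They recovered 34%, 26% and 13% of log2 changes of 1, in that order. For log2 changes of 2 the shares were 73%, 74% and 53%. Each simulation changed 100 probes at each size, where 1549, 1293 and 5043 probes passed in the data. With fewer changed probes the adjusted p is harder to pass, so these shares can be too low for the data. They do not measure recovery in the data, but a member without a call may still differ. The number of arrays limits precision.

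The members and lists were chosen with earlier results of these data known. Values per array were given for the highest and lowest called members of each comparison (up to 5 each way), for up to 3 members per complex by moderated F p, for tissue isoforms and for core subunits, and for up to 3 genes of each other list by F p. Ndufa3, Ndufb3, Ndufb4, Ndufs4, Atp5g1, Atp5g2, Cox7b, Ckm, Myl1 and Ucp1 were named after their values were seen. Not every member is reported by name here. Symbols were updated through RefSeq on GRCm38.p6 (4 of 54 changed), which was used for names, chromosomes and promoters. Alternatives covered normalization, floor, variance prior, probe filter, probes tested, 1 probe per gene, covariates, day 0 series and each array left out. R 4.3.3, limma 3.58.1, Python 3.11.15, pandas 2.3.3 and matplotlib 3.10.9 were used.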

Additional observations from a re-analysis of the deposited data

Results flagged for a closer look

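Of 200 sets of values within a group of 5 or 6 arrays, 20 had an array far from the others by Dixon's criterion. Chance gives about 1 in 20. Of these, 15 came from large replicate 6.

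Its complex means were -0.79 for complex I (others -0.07 to 0.02), -0.39 for III (0.03 to 0.15), -0.85 for IV without Cox6a2 (-0.09 to 0.18) and -0.65 for V (-0.03 to 0.07). By probe, it was low for Ndufs5 at 14.22 (others 15.73 to 15.85), Uqcr 14.80 (16.10 to 16.28), Uqcrb 16.52 (18.17 to 18.32), Cox5a 17.18 (17.75 to 18.06), Cox5b 14.12 and 14.53 at 2 probes (15.08 to 15.36 and 15.54 to 15.65), Cox6b 16.62 (17.85 to 17.97), Cox7c 15.76 (17.22 to 17.34), Atp5h 17.63 (18.40 to 18.61) and Atp5o 16.31 (17.13 to 17.35). It was high for Uqcrc2, at 18.05 (17.49 to 17.67).

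The other 5 were small replicate 6 for the complex II mean (0.39, others 0.16 to 0.20) and for Ndufv1 (16.96, others 17.05 to 17.08), small replicate 5 for Ndufs8 (15.93, others 16.08 to 16.17), medium replicate 5 for Cox6a2 (13.85, others 9.97 to 10.79) and day 0 replicate 2 for Ndufb8 (11.59, others 11.44 to 11.46).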

How the results depend on the processing

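Counts of member calls moved with the settings, and every count that moved by over 1.5 times follows; the cause was not tested unless fewer arrays or another number of probes explains it. Medium against small tumors had 0 as reported and 1 with arrays centred on medians, with no normalization, with the floor at the 5th percentile and with dim probes left out, and 2 over the probes of the authors' table (0 to 2 with an array left out). Large had 5, and 1 centred, without normalization, without the intensity trend and when adjusted for life span, and 0 when adjusted for tissue markers (1 to 4). Very large had 2, and 1 without normalization and with life span, 0 without the intensity trend and with tissue markers, and 4 over the authors' probes (0 to 2). The trend had 5, and 8 centred, 11 over the authors' probes, 1 without normalization and without the intensity trend, and 0 with life span, with tissue markers and without the small tumors (1 to 9). Day 7 against day 0 had 1, and 0 centred, without normalization, without the intensity trend, over all probes of the series table and with day 0 replicates 1 and 2, and 14 with replicates 3 to 5 (0 to 5). Day 14 against day 0 had 6, and 1 centred, 2 without normalization and without the intensity trend, 10 with dim probes left out, 3 over all probes and with day 0 replicates 1 and 2, and 19 with replicates 3 to 5 (0 without day 14 replicate 2, to 10 without day 0 replicate 1). Set 2 tumors against day 0 had 16, and 8 centred, 9 without the intensity trend and 25 with day 0 replicates 3 to 5 (5 to 18). Against day 14 they had 23, and 10 centred and 1 without normalization (9 to 14). Counts over all probes moved with these settings too: with day 0 replicates 3 to 5 alone they went from 1293 to 3504 for day 14 and from 252 to 3142 for day 7, and with tissue markers to 3, 7, 76 and 1 for medium, large, very large and trend. Over the authors' probes alone, 3.27%, 7.43%, 15.1% and 17.3% of the 12688 passed in those 4 comparisons. With arrays centred on medians the shares of all probes there were 0.846%, 1.52%, 3.44% and 3.99%. With 1 tumor or 1 day 14 array left, that array is assumed to vary like the other groups. Day 14 against day 7 had 0 throughout.

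Signs changed for Ndufb9 in large tumors with tissue markers (0.016), for the Cox6a2 trend without small tumors (0.035) and, without normalization, for set 2 tumors against day 0 at Ndufs5 (0.23), Cox5b (0.30), Atp5d (0.33) and Atp5o (0.37). Without normalization the median of all probes was itself 0.92 there, 0.71 for day 14 against day 0, 0.24 for tumors against day 14 and -0.26 for very large tumors. With arrays centred on medians, all probes called split 110 higher and 390 lower for large (313 and 448 as reported), 223 and 913 for very large (742 and 807) and 244 and 1073 for the trend (866 and 977). Of the other named calls, 640 recomputed values kept the call and 269 lost it. Complex medians moved beyond their spread in 83 recomputed values and stayed within it in 647. No paired analysis was possible because the replicate numbers follow accession order and pair no samples.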
